A study of Mus musculus with 5 samples.

Results

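Basal myoepithelial cells of the mouse mammary gland were taken from single-cell RNA profiles by a marker gate, which found 322 cells among 28588 that passed the cell filter. A member had at least 10 UMIs (unique molecular identifiers, each standing for 1 captured transcript) of Krt5, Krt14 and Krt17 together per 10000 UMIs of the cell, and at least 5 such UMIs. It also had at least 1 UMI of at least 2 of the 5 genes Acta2, Cnn1, Myh11, Oxtr and Trp63. It held no UMI of the leukocyte gene Ptprc, fewer than 50 UMIs of Col1a1, Col1a2 and Col3a1 per 10000, fewer than 2 of 4 luminal progenitor genes (Kit, Elf5, Aldh1a3, Plet1) and fewer than 3 of 6 hormone-sensing luminal genes (Prlr, Esr1, Pgr, Ptn, Cited1, Areg). The members were thus chosen by the measured levels of 22 genes in these same libraries, so the levels of those genes are a description and carry no test. The series holds 5 libraries of mouse mammary gland tissue: 3 labelled Frmd3 KO (KO1, KO2 and KO3) and 2 labelled WT (WT1 and WT2). No label ties each library to 1 mouse, so p-values measure the spread between libraries. The labels give only the tissue and the genotype, so the deleted part of Frmd3, the strain, age, sex, parity and way of dissociation are not known here. The series title asks how FRMD3, a protein with a membrane-binding FERM domain, bears on mammary epithelial fate and Notch signalling.

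Basal myoepithelial cells form the outer layer of mammary ducts and alveoli, between the luminal cells and the basement membrane. They contract through a smooth muscle type actin and myosin apparatus when oxytocin reaches its receptor Oxtr, and so eject milk. They also lay down basement membrane, are anchored to it by integrins and hemidesmosomes, and present Notch ligands and secreted factors to the luminal cells. Smooth muscle genes are known to be switched on by serum response factor (SRF) through a DNA element called the CArG box.

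The promoters of 2 contractile genes, Acta2 of the gate rule and Myl9 outside it, are shown because they carry that element or a near match. They run from 250 bases before to 50 bases after the gene start on GRCm38.p6 and were taken from RefSeq. Acta2, smooth muscle actin, lies on the minus strand (chr19:34255324-34255623), and Myl9, a regulatory myosin light chain, on the plus strand (chr2:156775214-156775513). Capitals mark CCNNNNNNGG with at least 5 of the 6 inner bases A or T, which read the same on both strands.
Acta2: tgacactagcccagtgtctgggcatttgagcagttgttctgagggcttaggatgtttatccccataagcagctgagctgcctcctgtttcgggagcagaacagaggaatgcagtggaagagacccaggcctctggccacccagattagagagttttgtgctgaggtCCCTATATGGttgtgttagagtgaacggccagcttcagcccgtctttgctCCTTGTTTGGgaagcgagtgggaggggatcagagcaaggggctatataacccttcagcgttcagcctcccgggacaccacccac
Myl9: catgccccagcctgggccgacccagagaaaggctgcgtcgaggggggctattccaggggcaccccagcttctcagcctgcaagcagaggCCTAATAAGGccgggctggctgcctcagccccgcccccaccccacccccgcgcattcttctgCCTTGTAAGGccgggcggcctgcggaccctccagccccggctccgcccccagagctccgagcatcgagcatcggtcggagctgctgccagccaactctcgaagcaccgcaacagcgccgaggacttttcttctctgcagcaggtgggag
In Acta2 the boxes begin 84 and 34 bases before the start, and in Myl9 161 and 99 bases before it. Of 20 contractile genes with a promoter in the table, 5 held such a box (Acta2, Myl9, Myl6, Pdlim3 and Synm; 25%). Among the genes tested below, 587 of 5445 with a promoter did (10.8%), and 3050 of 27025 genes in the whole table did (11.3%). With all 6 inner bases A or T, the share was 2 of 20 (Myl9 and Myl6), against 106 of 5445 tested genes (1.95%). A match is a description of the letters in this window and not a measured binding site.

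The members numbered 105 in KO1, 19 in KO2 and 27 in KO3, against 130 in WT1 and 41 in WT2. Of the cells in the basal gate and 2 mirror gates for luminal progenitor (1816 cells) and hormone-sensing luminal cells (2924 cells), they made up 11.1%, 1.15% and 17.9% in KO1, KO2 and KO3, and 10.0% and 4.05% in WT1 and WT2. The KO mean was 10.1% ± 8.42 and the WT mean 7.03% ± 4.21 (SD, n = 3 and 2). The libraries overlapped, and a two-sided exact permutation test over the 10 possible splits gave p = 0.8, where the smallest possible p is 0.1. Of all cells passing the filter the members were 1.01%, 0.409% and 1.18% in the KO libraries and 2.57% and 0.658% in the WT libraries (0.869% ± 0.408 against 1.61% ± 1.35, exact permutation p = 0.6). The difference in the share of epithelium, 3.03 percentage points, became -0.89 without KO3 and 0.66 when the gates were applied after thinning each cell to 2000 UMIs (exact permutation p = 1.0). The difference in the share of all cells, -0.74 points, became 0.21 without WT1.

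**Figure D1:**
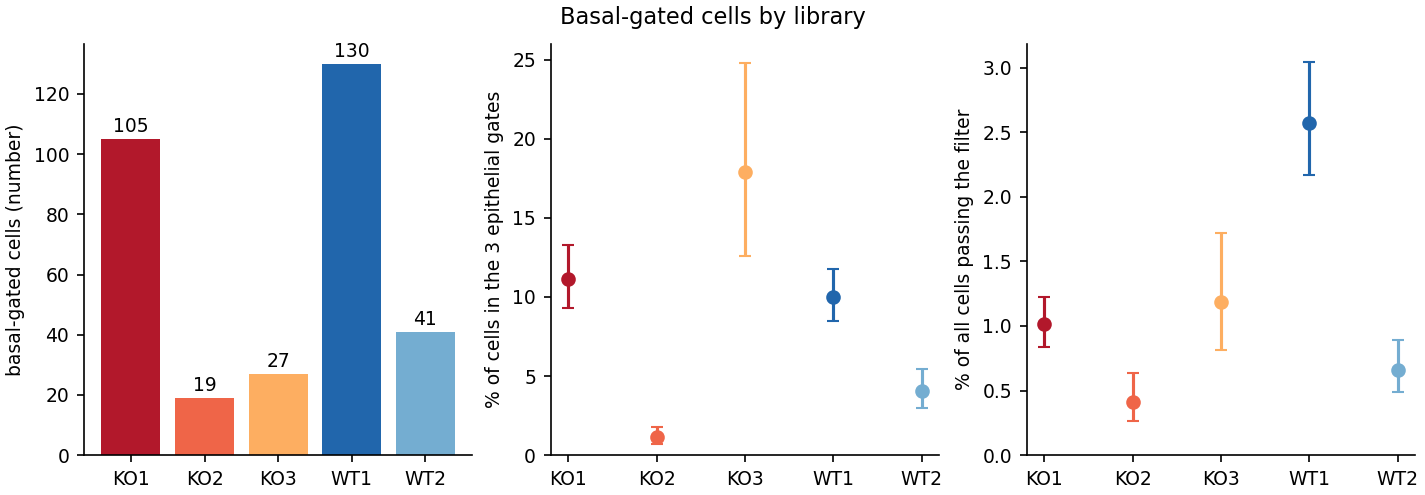
Number of basal-gated cells (bars) and their share of the 3 epithelial gates and of all filtered cells (points, with 95% Wilson intervals that cover counting error only) in each KO and WT library. KO2 and WT2 lie below the other libraries in both shares, and the 2 genotypes overlap.

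The keratin condition alone passed 410 cells, and the other conditions kept unequal parts of them. Members were 86.8%, 52.8% and 90% of keratin-passing cells in KO1, KO2 and KO3, and 87.8% and 54.7% in WT1 and WT2. In KO2, 11 of the 17 cells removed had fewer than 2 of the 5 genes, and in WT2 11 of 34. KO2 and WT2 thus lost a larger part of their keratin-positive cells to the rule than the other libraries. At the keratin level the nearest cell inside had 10.1 UMIs per 10000 and the nearest outside 9.70, and 13 cells failed on this condition alone. On 2 against 1 of the 5 genes, 8 members stood at the limit and 3 cells failed only there. The luminal limits had more cells beside them: 61 members held 1 luminal progenitor gene and 11 cells failed only by holding 2 or more, while 69 members held 2 hormone-sensing genes and 19 cells failed only by holding 3 or more. Another 13 cells failed only by Ptprc and 4 only by collagen.

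The summed members gave 810420, 285317 and 305787 UMIs in KO1, KO2 and KO3, and 1288298 and 652540 in WT1 and WT2. Median UMIs per member were 7673, 13945 and 10821 in the KO libraries and 9427 and 13499 in the WT libraries (exact permutation p = 1.0), so shares of cells with a UMI are given below after thinning each cell to 2000 UMIs, which left 318 members and put the luminal cells at the same depth. No member barcode was shared between libraries as a member, and 1 was also a filtered barcode elsewhere. A doublet score called 5 members, all in WT1. Frmd3 had 0 UMIs in the members of all 5 libraries, which allows up to 3.70, 10.5 and 9.81 UMIs per 1000000 in KO1, KO2 and KO3 and 2.33 and 4.60 in WT1 and WT2 (3 UMIs in each library). Over all filtered cells Frmd3 had 157, 197 and 43 UMIs in the KO libraries and 79 and 202 in the WT libraries. A 3′ tag outside the deleted part would remain, so these counts do not check the labels.

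All 6 defining markers were found in the members. Acta2 had a UMI in 322 of 322 members, Krt14 in 318, Krt5 and Krt17 in 306 each, Oxtr in 205 and Trp63, the master transcription factor of basal epithelium, in 143. All 3 keratins were detected together in 287 members and Acta2 with Myh11, smooth muscle myosin heavy chain, in 318, while 72 held neither Oxtr nor Trp63. Per cell, Acta2 ranged from 20.3 to 130 UMIs per 10000 between the 10th and 90th percentile of members (median 63.0). Krt14 ran from 6.91 to 38.4 (median 19.2), and Krt17 from 2.25 to 38.2 (median 12.1). Krt17 spread more widely among members than Krt14 did, relative to its median. After thinning, a UMI of Oxtr was left in 25.5% of members (63.7% before), against 0.04% of hormone-sensing cells and 1.54% of luminal progenitor cells (0.1% and 5.5% before). Trp63 was left in 15.7% of members (44.4% before) and in 0 of 2852 hormone-sensing and 0 of 1749 progenitor cells (0.1% of each before). Both genes belong to the rule, and the 2 luminal gates admitted only cells with fewer than 2 of the same 5 genes. This contrast was thus set in part by the gates and is a description.

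Markers of other cells were measured in the members as well, as summed levels in UMIs per 1000000 UMIs of the members (CPM). The luminal keratins Krt8, Krt18 and Krt19 summed to 478, 1094 and 386 CPM in KO1, KO2 and KO3 and to 567 and 1094 CPM in WT1 and WT2, against 7765 to 17768 CPM in luminal progenitor cells. The 10 luminal progenitor markers summed to 1056 to 1710 CPM in the KO libraries and 1730 to 2336 CPM in the WT libraries, with Elf5 and Csn2 at 0, and most of that sum was Lcn2 and Trf. The 8 hormone-sensing markers gave 241, 463 and 445 CPM in KO and 286 and 290 CPM in WT, most of it Ptn, pleiotrophin. The 10 fibroblast markers gave 806, 855 and 592 CPM in the KO libraries and 1231 and 976 CPM in the WT libraries, so the genotypes did not overlap. That difference rested in part on the 5 called doublets of WT1. Without them the log2 difference of KO over WT went to 0.03 for Pi16 (-1.91 with them), to -0.06 for Col1a2 (-0.61) and to -0.51 for Col3a1 (-0.96). Dcn went to 0.28 (-0.07), while Col1a1 stayed at -0.81 (-1.11), Mfap5 at -0.69 (-2.24) and Gsn at -0.28 (-0.61). Dpt and Lum fell under the count filter. Col1a1, Col1a2 and Col3a1 were also limited by the gate. Leukocyte markers gave 111, 17.5 and 71.9 CPM in the KO libraries and 314 and 47.5 CPM in the WT libraries, with WT1 highest and Ptprc at 0 by the rule. Endothelial markers stayed between 4.60 and 10.5 CPM, and pericyte and vascular smooth muscle markers between 7.01 and 22.9 CPM, with Kcnj8 and Higd1b at 0 and Cdh5, Emcn, Egfl7 and Cldn5 at 0. Of the epidermal keratinocyte markers (1281, 1861 and 1638 CPM in the KO libraries, 1116 and 1767 CPM in the WT libraries), Krt1, Dsg1a and Sprr1b were at 0. Most of that sum was Lgals7 (mean 1220 CPM, a UMI in 303 of 322 members) and Krt15 (mean 284 CPM). The rule set no upper limit on epidermal markers. Schwann and glial markers gave 84.1 to 168 CPM in KO and 110 to 182 CPM in WT, and markers of skeletal muscle, erythroid cells and adipocytes at most 11.6 CPM each.

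The contractile genes set the members far apart from both luminal gates, also for genes the rule did not use. Tagln, transgelin, an actin-binding protein of smooth muscle, had 4114, 3841 and 3470 CPM in KO1, KO2 and KO3 and 4084 and 4815 CPM in WT1 and WT2, with luminal means of 47.4 CPM (progenitor) and 3.18 CPM (hormone-sensing). Mylk, the kinase that switches smooth muscle myosin on, averaged 1005 CPM in the members and 1.48 and 0.853 CPM in the luminal gates. Actg2, enteric smooth muscle actin, averaged 456 CPM in the members and 0.312 and 0.318 CPM in the luminal gates. Of 23 contractile genes, 19 were higher in the members than in both luminal gates in all 5 libraries, and of 23 basement membrane genes 17 were. The same held for 1375 of 6817 genes tested (20.2%), and for none of the 21 antigen presentation genes. The contractile list holds genes that the rule used, such as Acta2 and Cnn1, whose order was set by the gates. Counts of listed genes higher in the members cover every listed gene, while the 20.2% covers tested genes only. These levels describe cells that were separated by expression and carry no test.

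Several secreted factors had the same pattern. Cxcl14, a chemokine, had 2796, 1623 and 1707 CPM in the members of KO1, KO2 and KO3 and 2308 and 1675 CPM in those of WT1 and WT2, and a mean of 2.19 and 1.87 CPM in progenitor and hormone-sensing cells. After thinning it was found in 94.0% of members (99.4% before), against 0.86% and 0.35% of the luminal cells (2.6% and 1.9% before). Il17b, a cytokine of the interleukin 17 family, was found in 37.1% of members after thinning (67.7% before) and in none of the progenitor or hormone-sensing cells thinned likewise (0.4% and 0.1% before). Igfbp2, an IGF-binding protein, averaged 446 CPM in the members and 1.15 and 0.136 CPM in the luminal gates. Among regulators, Id4, an inhibitor of basic helix-loop-helix factors, averaged 261 CPM in members against 1.51 and 0.694 CPM, and Snai2 averaged 112 CPM against 0.0596 and 0.134 CPM.

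Of 31 core Notch genes, 8 were higher in the members than in both luminal gates in all 5 libraries, against 20.2% of all genes tested, and the ones named next were picked for their role as ligand or receptor. The ligand Dll1 had 147, 77.1 and 45.8 CPM in the members of KO1, KO2 and KO3 and 127 and 82.8 CPM in those of WT1 and WT2, with luminal means of 1.20 and 0.181 CPM. Jag2 had 83.9, 42.1 and 75.2 CPM in the KO libraries and 85.4 and 53.6 CPM in the WT libraries, with luminal means of 1.83 and 0.569 CPM. Jag1 averaged higher in hormone-sensing cells (25.3 CPM) than in progenitors (4.30 CPM), and had 49.4, 137 and 134 CPM in the KO members and 72.2 and 113 CPM in the WT members. Notch1 and Notch3, which are receptors, ran the other way. Notch1 had 6.54 to 18.5 CPM in KO members and 7.66 to 16.3 CPM in WT members, below the luminal means of 150 and 61.6 CPM. Notch3 had at most 4.60 CPM in any library's members, and Notch4, Dll3 and Dll4 had no UMI. Notch2 had 9.81 to 14.8 CPM in KO members and 12.3 to 18.6 CPM in WT members, with luminal means of 25.7 and 11.5 CPM. After thinning, Notch1 was left in 3.14% of members (11.8% before) and in 23.4% and 13% of progenitor and hormone-sensing cells (61.6% and 58.7% before). Hes1, a Notch target, had 45.8 to 110 CPM in KO members and 62.8 to 77.6 CPM in WT members, with luminal means of 265 and 584 CPM.

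**Figure D2:**
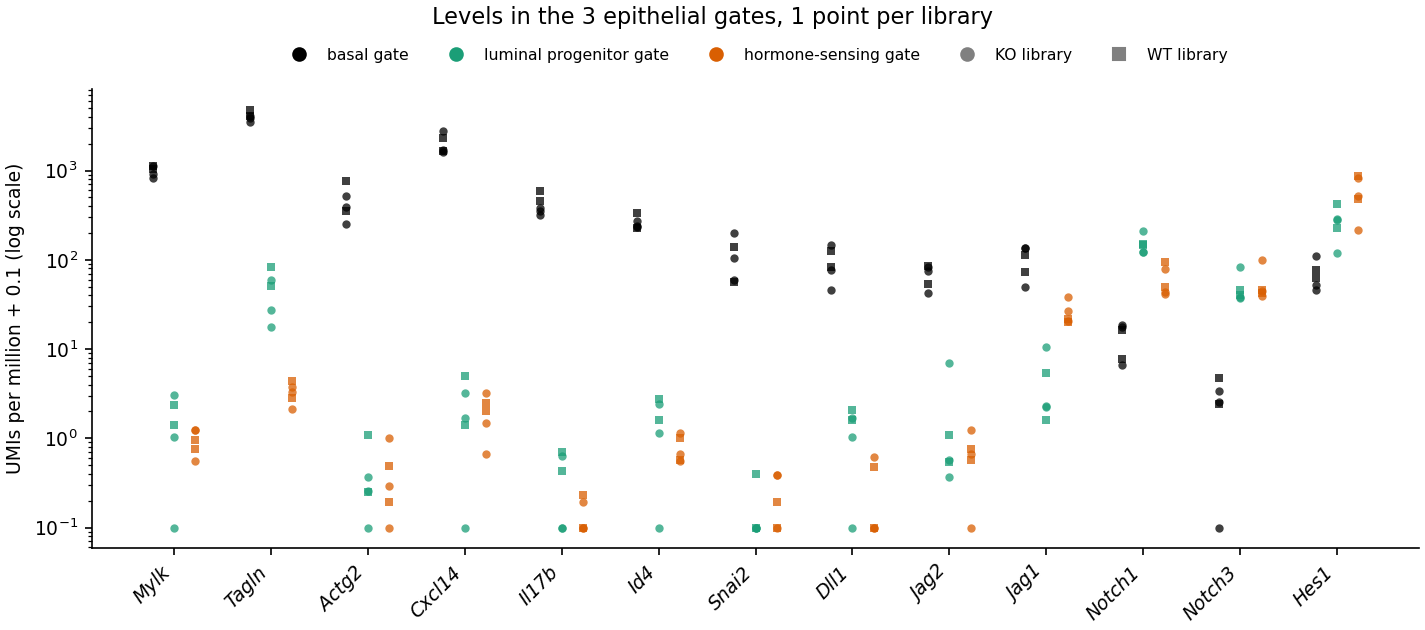
Level of 13 genes outside the gate rule in basal, luminal progenitor and hormone-sensing cells, in UMIs per 1000000 plus 0.1 on a log axis, with 1 point per KO library (circles) or WT library (squares). Contractile genes, secreted factors and Notch ligands are high in the basal gate, while Notch1, Notch3 and Hes1 are lower there than in the luminal gates.

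KO and WT members were compared on the summed UMIs of each library with edgeR's quasi-likelihood test, with Benjamini-Hochberg adjustment over 6817 genes and a threshold of 0.05. No gene passed in either direction (0.0% of genes tested). At an unadjusted p under 0.05 there were 114 genes (1.67%), 46 higher in KO (0.675%) and 68 lower (0.998%), and DESeq2 called none and had 46 genes at that unadjusted p. The values of all 3 KO libraries lay above both WT libraries for 448 genes (6.57%) and below both for 498 (7.31%), 13.9% together. Left out in turn, WT1 changed the count to 1 higher (0.0149%) and 3 lower (0.0446%), and WT2 to 13 lower (0.185%). Without KO2, which holds 1 member fewer than the 20 set as a minimum, the count was 0, as it was without KO1 or KO3. Each fold change below is log2 of KO over WT with its standard error from this fit, and none passed. The median over all genes was 0.0075, with 49.1% of genes below 0 and 50.9% above. Of the 18 list medians, 12 changed sign when 1 library was left out. The 6 that did not were those of the contractile, Notch core, MHC class I, interferon, heat shock and oxidative phosphorylation lists. Genes that the gate used were kept in the lists and their medians.

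**Figure D3:**
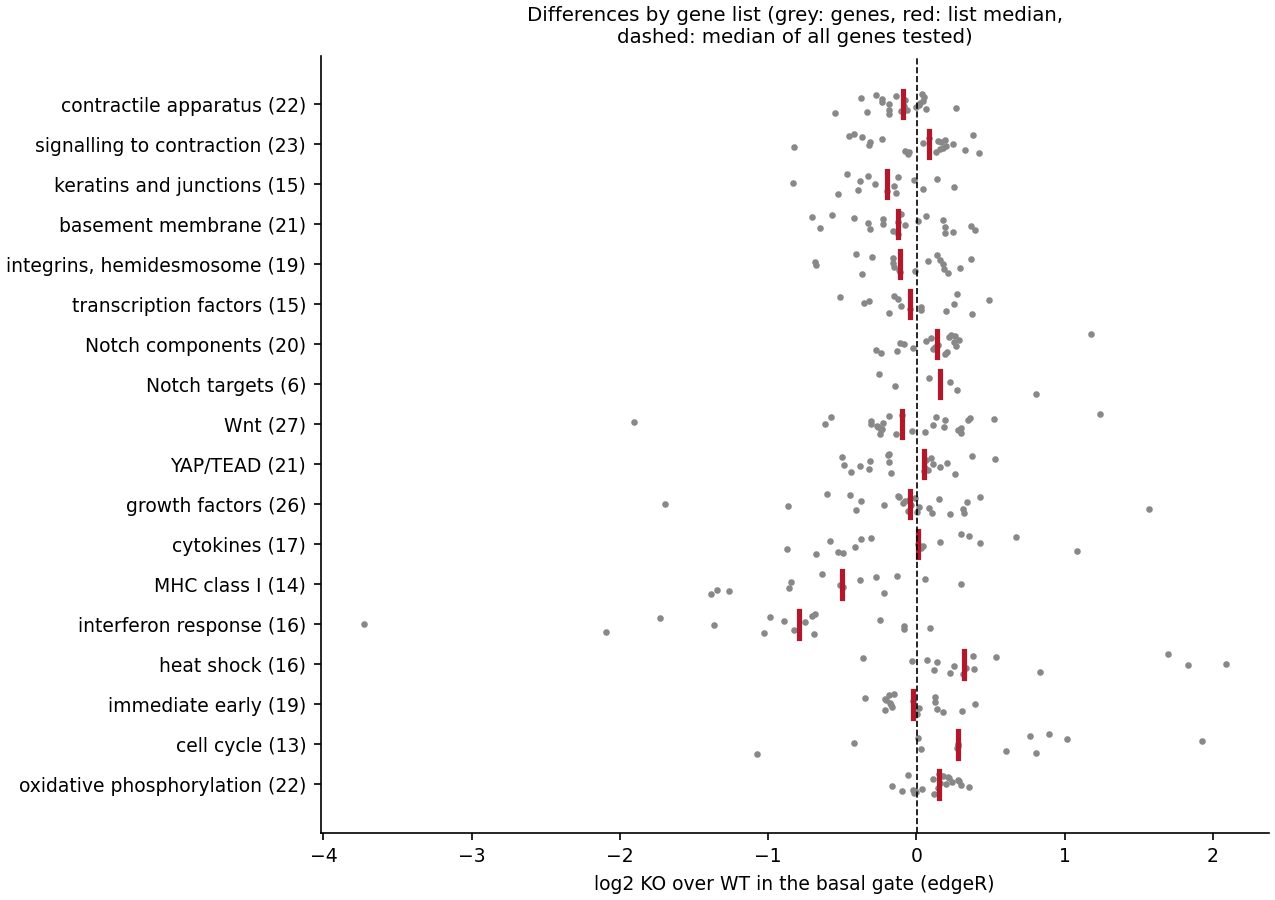
Log2 difference of KO over WT members for each gene (grey points) of 18 gene lists, with the list median (red bar) and the median of all 6817 genes tested (dashed line); the number of genes tested stands beside each name. The interferon and MHC class I lists lie farthest left and the heat shock list has the most positive median, and no gene passed the test.

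No gene of the contractile apparatus passed the test between genotypes. Of 22 contractile genes tested, 15 had a log2 difference below 0 and 7 above, with a median of -0.09 and a range of -0.55 to 0.27. The median was -0.20 without KO1, with 20 of 22 genes below 0, and -0.19 without WT1. Acta2 had 7181, 8454 and 6998 CPM in KO1, KO2 and KO3 and 7157 and 9776 CPM in WT1 and WT2, and Cnn1, calponin, 955, 789 and 808 CPM in the KO libraries and 908 and 1019 CPM in the WT libraries. In both genes the KO and WT libraries overlapped. The member with the largest difference, Actg2, had 253, 522 and 392 CPM in KO and 352 and 760 CPM in WT (-0.55 ± 0.34). Myl9 had 801, 985 and 713 CPM in KO and 731 and 900 CPM in WT (0.02 ± 0.24). Myh11 had 1935, 1346 and 1733 CPM in KO and 1934 and 1408 CPM in WT, with KO2 and WT2 the low libraries.

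Of 23 genes that carry the signal to contraction, 13 were above 0 and 10 below (median 0.08). The receptor Oxtr had 210, 80.6 and 206 CPM in KO1, KO2 and KO3 and 163 and 120 CPM in WT1 and WT2, and both KO2 and WT2 were low. For 5 genes all KO values lay below both WT values (7.31% of all genes tested did), among them the kinases Rock1 and Rock2, which keep myosin phosphorylated. Rock1 had 220, 238 and 216 CPM in KO and 315 and 259 CPM in WT (-0.37 ± 0.26), and Rock2 252, 252 and 216 CPM in KO and 327 and 328 CPM in WT (-0.45 ± 0.26). Itpr2, a calcium release channel, had 13.6, 10.5 and 16.4 CPM in KO and 26.4 and 21.5 CPM in WT (-0.83 ± 0.45). The adjusted p was 0.9995 for each of them in edgeR, and the list median was -0.05 without KO2 and -0.07 without KO1.

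Among 15 keratin and junction genes, 12 were below 0 and 3 above (median -0.20). Krt5 had 607, 631 and 612 CPM in KO1, KO2 and KO3 and 547 and 688 CPM in WT1 and WT2. Krt14 had 2025, 2713 and 1589 CPM in KO and 2284 and 2785 CPM in WT, and Krt17 1479, 2611 and 1236 CPM in KO and 1692 and 2869 CPM in WT. KO2 and WT2 were the high libraries for Krt17, whatever the genotype. Krt15, a keratin of basal cells of stratified epithelia, had 374, 130 and 124 CPM in KO and 251 and 539 CPM in WT (-0.83 ± 0.60), and a UMI of it was found in 148 of 322 members. Cdh3, P-cadherin, had 110, 109 and 42.5 CPM in KO and 104 and 91.9 CPM in WT (-0.13 ± 0.35), and Cdh1, E-cadherin, 62.9, 73.6 and 52.3 CPM in KO and 55.9 and 130 CPM in WT (-0.53 ± 0.37).

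The basement membrane list had 13 of 21 genes below 0 and 8 above (median -0.12). Thbs1, thrombospondin 1, had 902, 1469 and 1092 CPM in KO1, KO2 and KO3 and 1694 and 1677 CPM in WT1 and WT2 (-0.57 ± 0.23), with every KO library below both WT libraries. Nid1, nidogen, which links laminin to collagen IV, had 33.3, 42.1 and 36.0 CPM in KO and 52.8 and 67.4 CPM in WT (-0.71 ± 0.33), and Fn1, fibronectin, 37.0, 42.1 and 39.2 CPM in KO and 65.2 and 56.7 CPM in WT (-0.65 ± 0.32). In the same members the summed fibroblast markers were lower in KO than in WT, and all 9 that were tested were below 0. Among them, Col1a1, Col1a2 and Col3a1 were limited by the gate. With the 5 doublets of WT1 removed, Fn1 was at -0.01, Nid1 at -0.46 and Thbs1 at -0.56. Collagen IV ran the other way within overlapping ranges: Col4a1 had 608, 1297 and 1786 CPM in KO and 741 and 1353 CPM in WT (0.19 ± 0.41). The laminin chain genes Lama3 (-0.07 ± 0.27) and Lamb3 (0.18 ± 0.29) overlapped between genotypes as well.

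Of 19 integrin and hemidesmosome genes 11 were below 0 and 8 above (median -0.11). Itga9 had 56.8, 31.5 and 39.2 CPM in KO1, KO2 and KO3 and 67.5 and 79.7 CPM in WT1 and WT2 (-0.69 ± 0.34). Dst, the hemidesmosome plakin dystonin, had 877, 754 and 880 CPM in KO and 654 and 702 CPM in WT (0.30 ± 0.23), and Itgb4, the hemidesmosomal integrin, 60.5, 52.6 and 65.4 CPM in KO and 45 and 47.5 CPM in WT (0.37 ± 0.32). In both, each KO library lay above both WT libraries (2 of 19 genes, against 6.57% of all genes tested). For Itga9 each KO library lay below both (1 of 19, against 7.31%). The laminin receptor Itga6 had 428, 543 and 657 CPM in KO and 578 and 613 CPM in WT (-0.16 ± 0.25).

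The listed transcription factors were of mixed sign, with 7 of 15 tested above 0 and 8 below (median -0.04). Of the 24 listed, 10 were higher in the members than in both luminal gates in all 5 libraries, against 20.2% of all genes tested. Trp63 had 72.8, 98.1 and 94.8 CPM in KO1, KO2 and KO3 and 90 and 49.0 CPM in WT1 and WT2. Srf, the factor that binds CArG boxes, had 19.7, 35.0 and 19.6 CPM in KO and 17.9 and 15.3 CPM in WT (0.49 ± 0.44), from 65 UMIs in all. Tbx3 had 27.1, 17.5 and 22.9 CPM in KO and 29.5 and 39.8 CPM in WT (-0.52 ± 0.39). Sox9 had 183, 435 and 213 CPM in KO and 208 and 464 CPM in WT (-0.32 ± 0.42), again with KO2 and WT2 high.

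The Notch pathway, named in the series title, held 20 testable core genes, of which 14 were above 0 and 6 below (median 0.14). The median was 0.08 without KO1 and 0.07 without KO3. Under a stricter veto on luminal genes it was 0.37, but over fewer genes, 6 above 0 and 1 below. The ligands overlapped between genotypes, with log2 differences of -0.13 ± 0.43 for Dll1, -0.02 ± 0.35 for Jag2 and 0.11 ± 0.39 for Jag1. Rfng, a fringe glycosyltransferase that modifies Notch, had 8.64, 38.6 and 22.9 CPM in KO1, KO2 and KO3 and 8.54 and 9.19 CPM in WT1 and WT2 (1.18 ± 0.64), from 42 UMIs. Rbpj, the DNA-binding partner of Notch, had 71.6, 87.6 and 137 CPM in KO and 79.2 and 82.8 CPM in WT (0.23 ± 0.31). Of 14 listed targets only 6 had enough UMIs to test. Hes1 was at 0.09 ± 0.38, Myc at -0.25 ± 0.31, and Ccnd1 had 16.0, 249 and 114 CPM in KO and 12.4 and 126 CPM in WT (0.81 ± 1.60). Hey1, Hey2, Heyl and Nrarp had 16, 3, 1 and 9 UMIs over all members, so differences in them were not detectable at this depth.

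Of 27 genes tested from the Wnt list 12 were above 0 and 15 below (median -0.10). The list also holds Procr, which is a receptor of protein C and not of Wnt. The ligand Wnt6 (chr1:74771892-74785322, mm10) had 29.6, 38.6 and 45.8 CPM in KO1, KO2 and KO3 and 13.2 and 18.4 CPM in WT1 and WT2 (1.24 ± 0.41, edgeR adjusted p = 0.9995), from 78 UMIs. Procr, the protein C receptor (chr2:155751117-155755471), had 11.1, 3.50 and 0.0 CPM in KO and 25.6 and 26.1 CPM in WT (-1.90 ± 0.62, edgeR adjusted p = 0.9995), from 60 UMIs. Wnt6 was higher in each KO library than in both WT libraries and Procr lower. Wnt10a, found in 4.40% of members after thinning (22% before) and in none of the luminal cells thinned likewise (0.1% before), had 22.2, 38.6 and 26.2 CPM in KO and 31.0 and 53.6 CPM in WT (-0.58 ± 0.39). Lgr5, an R-spondin receptor, had 35.8, 10.5 and 71.9 CPM in KO and 48.9 and 44.4 CPM in WT (-0.26 ± 0.46), and was left in 11% of members after thinning (26.4% before).

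YAP and TEAD, which carry signals of cell tension to the nucleus, and their regulators and targets were of mixed sign, with 11 of 21 genes above 0 and 10 below (median 0.049). Yap1 had 97.5, 98.1 and 141 CPM in KO1, KO2 and KO3 and 102 and 152 CPM in WT1 and WT2 (-0.19 ± 0.30). The target Ccn1 had 273, 214 and 111 CPM in KO and 206 and 306 CPM in WT (-0.32 ± 0.36), and the target Ccn2 732, 305 and 232 CPM in KO and 510 and 326 CPM in WT (0.06 ± 0.52). In these genes the genotypes overlapped. Lats1, a kinase that inhibits YAP, had 49.4, 56.1 and 32.7 CPM in KO and 57.4 and 75.1 CPM in WT (-0.49 ± 0.33), lower in each KO library.

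Genes of the interferon response and of MHC class I antigen presentation had the most negative medians of the 18 lists, and again no member passed. Of 16 interferon genes 15 were below 0 (median -0.79), and 6 had all KO libraries below both WT libraries, against 7.31% of all genes tested. Irgm1, an immunity-related GTPase (chr11:48861968-48871683, mm10), had 19.7, 24.5 and 6.54 CPM in KO1, KO2 and KO3 and 72.2 and 42.9 CPM in WT1 and WT2 (-1.73 ± 0.43, edgeR adjusted p = 0.9995). Gbp7, a guanylate-binding protein, had 7.40, 7.01 and 0.0 CPM in KO and 21 and 29.1 CPM in WT (-2.10 ± 0.64). Igtp had 9.87, 17.5 and 6.54 CPM in KO and 30.3 and 26.1 CPM in WT (-1.37 ± 0.47). In these genes both WT libraries lay above every KO library. Iigp1 rested more on WT1, with 3.70, 10.5 and 0.0 CPM in KO and 96.3 and 16.9 CPM in WT (-3.73 ± 0.98). Ifitm3 did not follow them, with 1645, 2397 and 1151 CPM in KO and 1944 and 1680 CPM in WT (-0.08 ± 0.27).

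Of 14 MHC class I genes 12 were below 0 (median -0.50), and 3 had all KO libraries below both WT libraries, against 7.31% of all genes tested. H2-D1, a class I heavy chain (chr17:35262730-35267499), had 332, 417 and 242 CPM in KO1, KO2 and KO3 and 1116 and 449 CPM in WT1 and WT2 (-1.26 ± 0.36, edgeR adjusted p = 0.9995). B2m, the light chain, had 281, 526 and 141 CPM in KO and 1070 and 549 CPM in WT (-1.38 ± 0.51), and H2-K1 368, 585 and 235 CPM in KO and 1445 and 538 CPM in WT (-1.35 ± 0.48). WT1 was the high library, WT2 was close to KO2, and KO3 was low. Without WT1 the differences were -0.44 for H2-D1, -0.81 for B2m and -0.45 for H2-K1. Tapbp, which loads peptide onto class I, had 75.3, 49.1 and 49.1 CPM in KO and 93.9 and 95 CPM in WT (-0.64 ± 0.32). Without WT1 the medians were -0.35 for MHC class I and -0.40 for interferon genes, and without WT2 -0.61 and -0.91. Without WT1 fewer interferon genes were tested, with 5 above 0 and 8 below, and Iigp1 was not among them. Of the MHC class I genes 4 were then above 0 and 10 below. WT1 also had the highest summed leukocyte and fibroblast markers in its members, and the part of these in the list was not tested. With the 5 called doublets of WT1 removed, the medians were -0.47 and -0.71. H2-Q6 and H2-Q7, which are nearly identical copies, fell under the count filter.

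**Figure D4:**
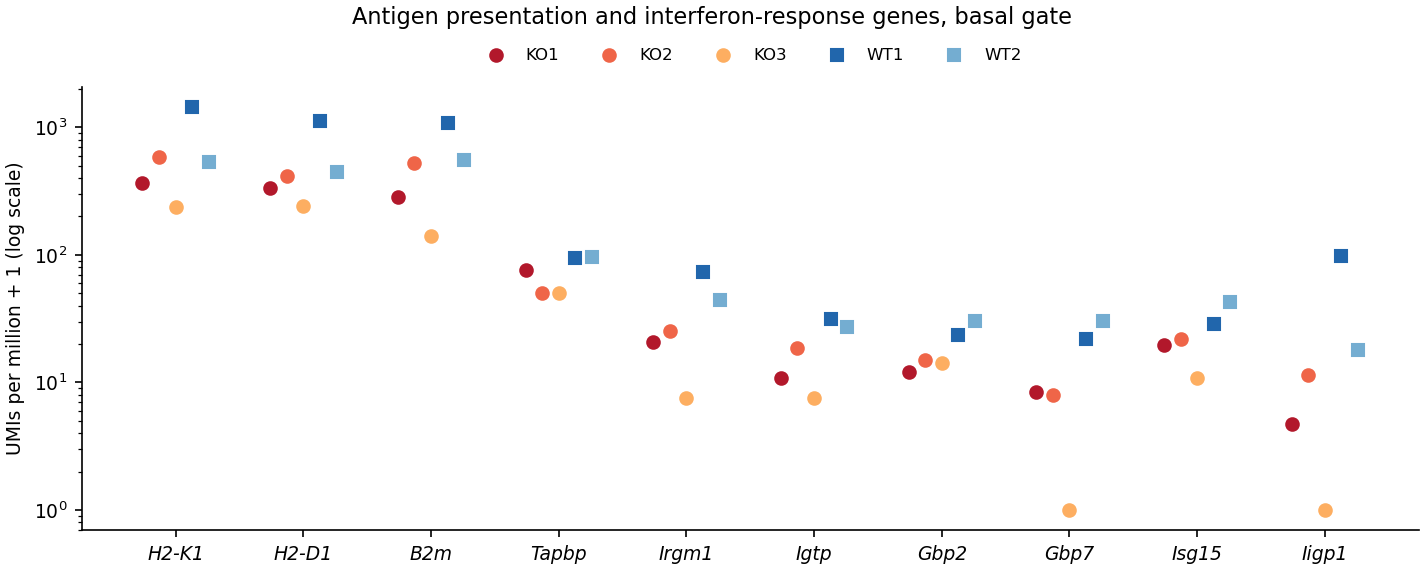
Levels of 10 antigen presentation and interferon-response genes in basal-gated cells, in UMIs per 1000000 plus 1 on a log axis, with KO libraries as circles and WT libraries as squares. WT1 is highest for H2-K1, H2-D1, B2m and Iigp1. Both WT libraries lie above all 3 KO libraries for every gene shown but H2-K1, by a small margin between WT2 and KO2 for H2-D1 and B2m.

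The same lists were measured in the luminal gates of the same libraries. The MHC class I median was -0.89 in luminal progenitor cells (0 of 19 genes above 0) and -0.40 in hormone-sensing cells (1 of 20 above 0), and the interferon medians were -0.66 and -0.28. Whether the genotype difference itself differed between gates was asked of an edgeR fit to both gates with a term for each library and 1 for the interaction, over KO1, KO3, WT1 and WT2, the libraries with at least 20 cells in both gates. No gene passed against luminal progenitor cells (0 of 9151, with 318 genes or 3.48% at an unadjusted p under 0.05) or against hormone-sensing cells (0 of 10543, with 236 or 2.24%), and with KO2 included the counts were also 0. No DESeq2 fit was made of these interactions. The first count became 43 without KO1 (11 more positive in the members, 0.113%, and 32 more negative, 0.33%) and 37 without WT1 (25, 0.283%, and 12, 0.136%). It was 2 without KO3 (0.0178%) and 1 without WT2 (0.01%). The second became 68 without WT1 (29, 0.272%, and 39, 0.366%) and 8 without WT2 (1, 0.00903%, and 7, 0.0632%), and was 0 without KO1 or KO3.

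The gene with the smallest p against progenitors was Csf1, the macrophage growth factor. It had 81.4, 203 and 134 CPM in the members of KO1, KO2 and KO3 and 44.2 and 84.3 CPM in those of WT1 and WT2 (1.08 ± 0.39), while progenitor cells had 36.1, 120 and 76.6 CPM in KO and 79.1 and 159 CPM in WT. The difference of the differences was 1.94 ± 0.34 (edgeR adjusted p = 0.12). Ly6a, the surface protein Sca-1, had 16.0, 21 and 9.81 CPM in KO members and 66.8 and 36.8 CPM in WT members (-1.74 ± 0.42), while hormone-sensing cells had 1013, 1653 and 1537 CPM in KO and 1053 and 833 CPM in WT (difference -2.14 ± 0.47, edgeR adjusted p = 0.81). The Ly6a value in the members was -0.49 once the 5 doublets of WT1 were removed.

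Tagln came next against progenitors, with 27.0, 59.2 and 17.4 CPM in KO progenitor cells and 50.9 and 82.6 CPM in WT progenitor cells, and the genotypes overlapped in progenitors and in members. The difference, which leaves out KO2, was 1.27 ± 0.26 (edgeR adjusted p = 0.37), and 0.63 with KO2 included. Slpi, a secreted inhibitor of leukocyte proteases, had 823, 480 and 765 CPM in KO members and 692 and 210 CPM in WT members. In hormone-sensing cells Slpi had 0.574, 2.76 and 1.82 CPM in KO and 6.94 and 1.90 CPM in WT, and the difference was 2.86 ± 0.58 without KO2 (edgeR adjusted p = 0.64) and 1.52 with it. In both genes the luminal levels lay far below those of the members. Rnf217, a ubiquitin ligase, had 17.3, 35.0 and 55.6 CPM in KO members and 72.2 and 73.6 CPM in WT members, and 12.2 to 27.9 CPM in KO progenitor cells and 14.3 to 23.4 CPM in WT ones (difference -1.82 ± 0.47). The other genes by the same rule were Atp6v1d, Malsu1 and Angptl4 against progenitors and Ackr3, Timp3, Ereg and Socs2 against hormone-sensing cells, with adjusted p between 0.81 and 1.0 in edgeR.

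Among 17 cytokine and inflammation genes 9 were above 0 and 8 below (median 0.010). Il17b had 353, 319 and 379 CPM in KO1, KO2 and KO3 and 454 and 588 CPM in WT1 and WT2 (-0.58 ± 0.25), and Cx3cl1, fractalkine, 44.4, 52.6 and 32.7 CPM in KO and 69.1 and 91.9 CPM in WT (-0.87 ± 0.33). Nfkbia, the inhibitor of NF-kB, had 276, 172 and 265 CPM in KO and 167 and 132 CPM in WT (0.67 ± 0.29). Of these, Il17b and Cx3cl1 lay lower in every KO library and Nfkbia higher. Among 26 growth factor genes 11 were above 0 and 15 below (median -0.04). Igfbp3 had 369, 403 and 249 CPM in KO and 410 and 829 CPM in WT (-0.86 ± 0.32). Gfra2, a receptor of the GDNF family, had 45.7, 10.5 and 36.0 CPM in KO and 11.6 and 10.7 CPM in WT (1.57 ± 0.51), with KO2 at the WT level. Gfra1, its relative, went the other way with 8.64, 3.50 and 3.27 CPM in KO and 23.3 and 26.1 CPM in WT (-1.94 ± 0.57).

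The genes with the smallest unadjusted p among those with ranges apart and at least 20 CPM in the group with the higher mean were, on the higher side, Hells, Wdr89, Atp6v1d, Lncpint, Wnt6, Hspa4l, Ccz1, Eapp, Pnkd and Scaper. On the lower side they were Ly6a, Irgm1, Gfra1, Gbp7, H2-D1, Dpt, Iigp1, Bcap29, Dido1 and Procr. The edgeR adjusted p was 0.9995 for all 20. Hells, a chromatin remodeller of dividing cells, had 16.0, 21 and 39.2 CPM in KO1, KO2 and KO3 and 6.21 and 3.06 CPM in WT1 and WT2 (2.20 ± 0.63), from 13, 6 and 12 UMIs in KO and 8 and 2 in WT. Atp6v1d, a subunit of the vacuolar proton pump, had 49.4, 24.5 and 58.9 CPM in KO and 18.6 and 13.8 CPM in WT (1.44 ± 0.42). Dpt, dermatopontin, is one of the fibroblast markers and had 14.8, 14.0 and 3.27 CPM in KO and 50.5 and 21.5 CPM in WT (-1.65 ± 0.52). It was at -0.86 without WT1, and without the 5 doublets it fell under the count filter.

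Immediate early genes, which cells switch on within minutes of a stimulus, differed widely between libraries of 1 genotype. Fos had 1463, 123 and 612 CPM in KO1, KO2 and KO3 and 1237 and 132 CPM in WT1 and WT2 (0.14 ± 1.54), and Junb 1503, 245 and 906 CPM in KO and 1425 and 406 CPM in WT (-0.02 ± 1.04). Egr1 had 945, 203 and 863 CPM in KO and 870 and 219 CPM in WT (0.31 ± 0.98). KO1 and WT1 were high, KO2 and WT2 low and KO3 between them, and the median of the 19 genes was -0.02. Ccnd1, cyclin D1, Nrg1, a ligand of ERBB receptors, Igfbp2 and Snai2 had the opposite order of libraries: Nrg1 had 122, 477 and 363 CPM in KO and 220 and 428 CPM in WT, and Igfbp2 257, 718 and 383 CPM in KO and 264 and 608 CPM in WT. The genes of this paragraph were chosen after their values were seen.

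Summed heat shock genes were high in 1 library, KO3. Of 16 tested, 14 were above 0 (median 0.32), and without KO3 14 were still above 0 (median 0.14). In the luminal gates, 15 of 16 were above 0 in progenitor cells (median 0.63) and 14 of 16 in hormone-sensing cells (median 0.34). Hspa1b, an inducible HSP70, had 222, 112 and 1354 CPM in KO1, KO2 and KO3 and 139 and 115 CPM in WT1 and WT2 (2.09 ± 1.33), and Hsph1 82.7, 119 and 634 CPM in KO and 87.7 and 73.6 CPM in WT (1.70 ± 1.10). Hspa1a and Hspa1b are nearly identical, and how reads were split between them is uncertain. KO3 is also the library counted with another Cell Ranger version, so the version and the library cannot be told apart.

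**Figure D5:**
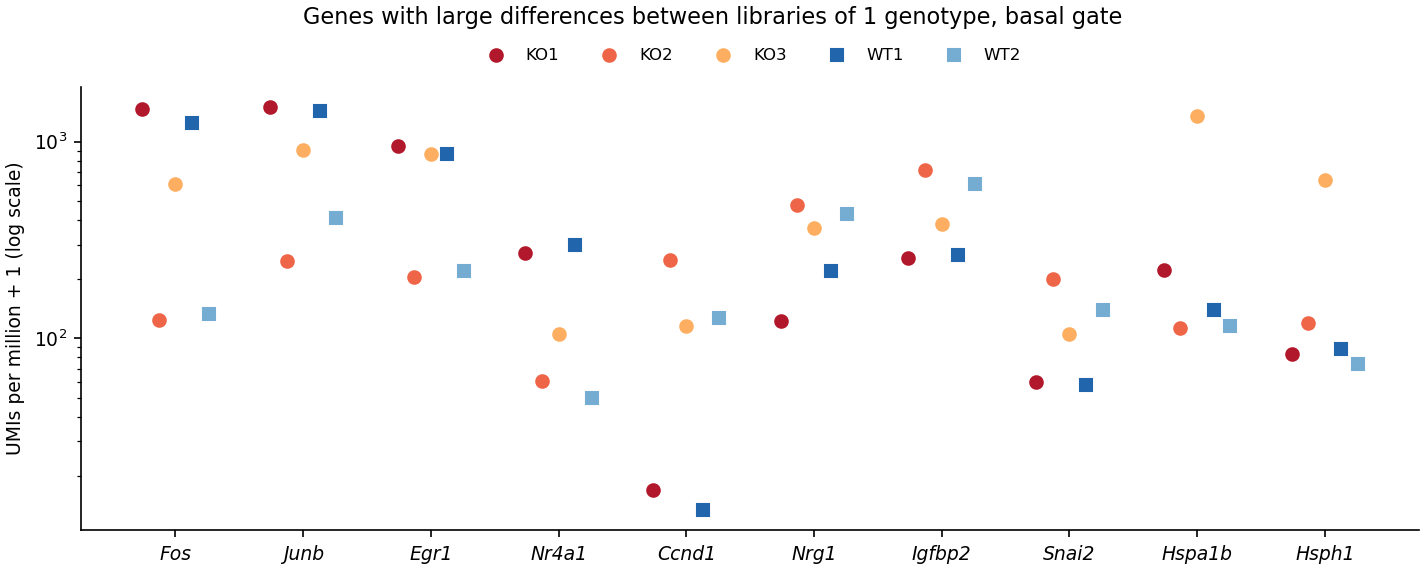
Levels of 10 genes in basal-gated cells, in UMIs per 1000000 plus 1 on a log axis, in KO libraries (circles) and WT libraries (squares). KO1 and WT1 are high for Fos, Junb, Egr1 and Nr4a1, KO2 and WT2 for Ccnd1, Nrg1, Igfbp2 and Snai2, and KO3 for Hspa1b and Hsph1.

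Transcripts of dividing cells were detected in few members, and shares of cells with a UMI are limits of detection and not shares of dividing cells. Mki67, a proliferation marker, was left in 0 of 318 members after thinning and was found in 1.9% of members before thinning. Of 13 cell cycle genes with enough UMIs to test, 11 were above 0 and 2 below (median 0.28). Without KO2 fewer of them were tested, with 3 above 0 and 5 below (median -0.02). Top2a, needed to separate chromosomes, was left in 1.57% of members (5.0% before), against 1.32% of progenitor and 1.96% of hormone-sensing cells (3.6% and 8.7% before). It had 3.70, 77.1 and 13.1 CPM in KO1, KO2 and KO3 and 10.9 and 19.9 CPM in WT1 and WT2 (0.77 ± 1.16), so KO2, with 19 members, was highest. Of 22 oxidative phosphorylation genes 15 were above 0 and 7 below (median 0.15, or 0.0049 without KO2).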

How the data were processed

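Single cells of mouse mammary gland tissue were profiled in 5 libraries with the 10x Genomics 3′ kit, version 3. The authors deposited unnormalized UMI counts for each gene in each barcode, made with Cell Ranger 6.0.2 (KO3: 6.1.2) per the file headers, on mm10 per the submitters' processing notes. The libraries held 3359 to 11040 barcodes with 24197344 to 87577099 UMIs. The cell filter asked for 500 or more detected genes and no more than 15% of UMIs from mitochondrial genes. Members passed the marker gate with no doublet removal, and a doublet score was an alternative. Their UMI counts were summed per library and tested with edgeR 4.0.16 in R 4.3.3 (filterByExpr, TMM, robust quasi-likelihood fit, Benjamini-Hochberg threshold 0.05), and DESeq2 1.42.0 was an alternative. Fits were tested on simulated data. SE is the absolute log2 fold change divided by the square root of F. CPM carries no TMM factor, and 3′ counts are not scaled to length. KO2 has 19 members, under the 20 intended, and was kept in the comparison of genotypes and left out of the interactions, and fits of these with KO2 were added after seeing the data. Intervals and floors (3 UMIs) cover counting error only. Gene IDs of the files were looked up in the GENCODE annotation for positions, and 99.8% were found.

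Members, gene lists and markers were chosen with earlier results of these data known. As no gene passed the test, named genes were the 10 per direction with the smallest unadjusted p among genes with library ranges apart and at least 20 CPM, up to 4 per list, up to 3 per direction in each interaction, and the gate genes. Other genes were named for their role or after their values were seen. Alternatives were RLE scaling, DESeq2, filters on low counts, a replicate block, each library left out, stricter gates, vetoes and cell filters, a looser keratin floor, thinning and doublet removal.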

Additional observations from a re-analysis of the deposited data

How the results depend on the processing

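No gene was called for KO against WT members with RLE scaling, DESeq2, a filter of at least 10 UMIs in 2 libraries, the stricter gate, the stricter luminal veto, the stricter cell filter or doublets removed. Without a filter on low counts 13 genes were called, all lower in KO, among them Iigp1, H2-K1, B2m and H2-D1 but also the marker genes of other cells Plet1 (luminal progenitor), Pi16 (fibroblast) and H2-Ab1 (leukocyte). Leaving out 1 library gave 0 to 13 calls: 4 without WT1 and 13 without WT2. With 1 library left in a group, it was assumed to vary like the other group. For the interactions the range was 1 to 43 calls against progenitor cells and 0 to 68 against hormone-sensing cells. The interferon median was -0.40 to -1.06 when 1 library was left out, over the genes that each fit could test. The KO minus WT difference in the share of epithelium ranged from -0.89 (without KO3) to 7.48 points, in the share of all cells from -1.70 to 0.21 (without WT1), and in median UMIs per member from -2686 to 1386, with 920 without KO1. The cause of these changes was not tested.

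With the replicate number as a block, 2 genes were called, both lower in KO (Iigp1 and Clic4). Deviations from the group mean went together in same-numbered libraries (r across genes 0.36 for number 1 and 0.29 for number 2). With 2 WT libraries, the deviations of WT1 and WT2 are exact opposites, so these are not 2 independent agreements. Nothing in the labels links the 2 pairs, and they do not make the design paired. With 19 to 130 members a library and 3 against 2 libraries, differences in genes with few UMIs were not detectable.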
